A study of Mus musculus with 14 samples.

Results

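The replication-dependent histone genes were taken as every symbol of the form Hist1h to Hist4h, or the same gene under its newer name, without pseudogenes. This gave 67 genes present in both expression tables, among 35389 gene identifiers in one table and 35341 symbols in the other. By family there were 6 genes for the linker histone H1, 18 for H2A, 18 for H2B, 12 for H3 and 13 for H4. The Hist1 cluster on chromosome 13 held 54 of them, the Hist2 cluster on chromosome 3 held 10, Hist3 on chromosome 11 held 2 and Hist4 on chromosome 6 held 1. Hist3h2a, Hist3h2ba and Hist4h4 carry newer names outside the naming pattern and were paired through RefSeq synonyms and coordinates. The genes were picked by name and not by a measured value, although earlier results of these data were known by then. A gene was tested in a table when its level reached 1 TPM (transcripts per 1000000 transcripts) in at least 2 libraries.

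Replication-dependent histones supply the bulk of nucleosomes during S phase. Most of their mRNAs have no intron and end in a conserved stem-loop in place of a poly(A) tail; the stem-loop binding protein Slbp holds it, and the U7 small nuclear ribonucleoprotein directs the cut. Some of these genes can also give polyadenylated mRNA, and growing oocytes store histone mRNA and Slbp for the cleavage divisions of the embryo. Hist1h2aa and Hist1h2ba encode TH2A and TH2B, variants found in germ cells and expressed from a shared divergent promoter.

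The libraries were made from polyadenylated RNA of mouse oocytes, so transcripts that end in a stem-loop without a tail would be under-represented. All oocytes overexpressed a protein. The control was the red fluorescent protein mCherry, and the tested proteins were Rnaseh1, which cuts the RNA strand of RNA:DNA hybrids, and Supt6, a histone chaperone of transcription elongation. The first table holds 8 libraries, with mCherry or Rnaseh1 at 2 oocyte stages told apart by chromatin around the nucleolus, non-surrounded (NSN) and surrounded (SN). The second table holds the 6 rescue libraries: mCherry, Rnaseh1, and Rnaseh1 together with Supt6, with no stage in the labels. Every group had 2 libraries. The labels give no strain, age or means of overexpression, and do not say whether the 2 libraries came from different animals or pools, so p-values measure the spread between libraries, which may be technical. Depth is unknown, since TPM does not keep it.

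Rnaseh1 stood at 228.84 to 1361.1 TPM in the NSN and SN libraries labelled Rnaseh1 and at 80.96 to 136.72 TPM in those labelled mCherry. In the rescue table it was 625.12 and 1242.68 TPM with Rnaseh1, 2016.97 and 2270.45 TPM with Rnaseh1 plus Supt6, and 114.05 and 124.93 TPM with mCherry. Supt6 was 20.97 and 28.16 TPM where it was overexpressed and at most 3.28 TPM in the other rescue libraries. All 12 oocyte markers reached 1 TPM in both tables. Of 13 granulosa or cumulus markers, 5 did so in the NSN and SN table and 4 in the rescue table, where Amh, Amhr2, Foxl2 and Ptx3 were at 0 throughout. The second NSN Rnaseh1 library stood apart, with a summed histone level of 498.07 TPM against 765.88 to 1213.02 TPM in the other 7 of its table.

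The stem-loops are shown because they are the feature that sets these mRNAs apart. A 16-base stem-loop was found in annotated transcripts of 35 of the 67 genes, in 3 forms, with the loop in capitals and written as DNA from the GENCODE M21 transcripts of GRCm38.
H1, H2A, H2B and H3 form: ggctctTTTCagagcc
first H4 form: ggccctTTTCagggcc
second H4 form: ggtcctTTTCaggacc
The first form was present in 3 H1, 10 H2A, 8 H2B and 5 H3 genes, and in no H4 gene. The others were present in 7 and 2 genes, all for H4. A match requires that the annotated transcript reaches the 3' end, so a gene without one may only have a short gene model.

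Of the 35 genes with an annotated stem-loop, 21 (60%) reached the level for testing in at least 1 table, against 13 of the 32 others (40.6%). A poly(A) signal, AATAAA or ATTAAA, within the last 50 bases of a transcript was present in 17 genes, of which 9 (52.9%) reached that level, against 25 of 50 genes without it (50%). These are counts of annotated features, with no test.

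Near-identical copies limit what can be said of single genes. Cut into pieces of 50 bases, the transcripts of a member had a median of 45.9% of pieces found in no other gene. Transcripts of all genes were searched on both strands, not only those of members. Among members, 374 pairs shared at least 1 piece. Hist2h2aa1, Hist2h2aa2, Hist2h2bb, Hist2h3b and Hist2h3c1 had 0% unique pieces. Hist2h2aa1 and Hist2h2aa2 shared 479 pieces, 89.2% of the first gene and 100% of the second, so reads could hardly be assigned to one of them. Hist1h2aa, with 76.2% unique pieces, Hist1h2bc with 69.4% and Hist3h2a with 68.5% were better resolved, and the H1 genes had a median of 98.85%.

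Few replication-dependent histones were abundant in these oocytes. In the NSN and SN table, 17 of the 67 genes were at 0 in all 8 libraries, 18 were detected below the level for testing and 32 were tested, of which 16 were at 0 in at least 1 library. Only 6 genes had a mean of at least 20 TPM. In the rescue table, 20 genes were at 0, 21 were below the level and 26 were tested, 9 of them with at least 1 library at 0, and 5 genes had a mean of at least 20 TPM. The tables shared 24 tested genes. Just inside the level in the NSN and SN table lay Hist2h4 and Hist4h4, with a second highest value of 1.05 and 1.25 TPM, and just outside it Hist1h3e and Hist1h2bg, with 0.8 and 0.75 TPM. In the rescue table Hist1h3e and Hist1h2bh lay inside, with 1.13 and 1.15 TPM, and Hist4h4 and Hist2h4 outside, with 0.97 and 0.91 TPM.

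**Figure D1:**
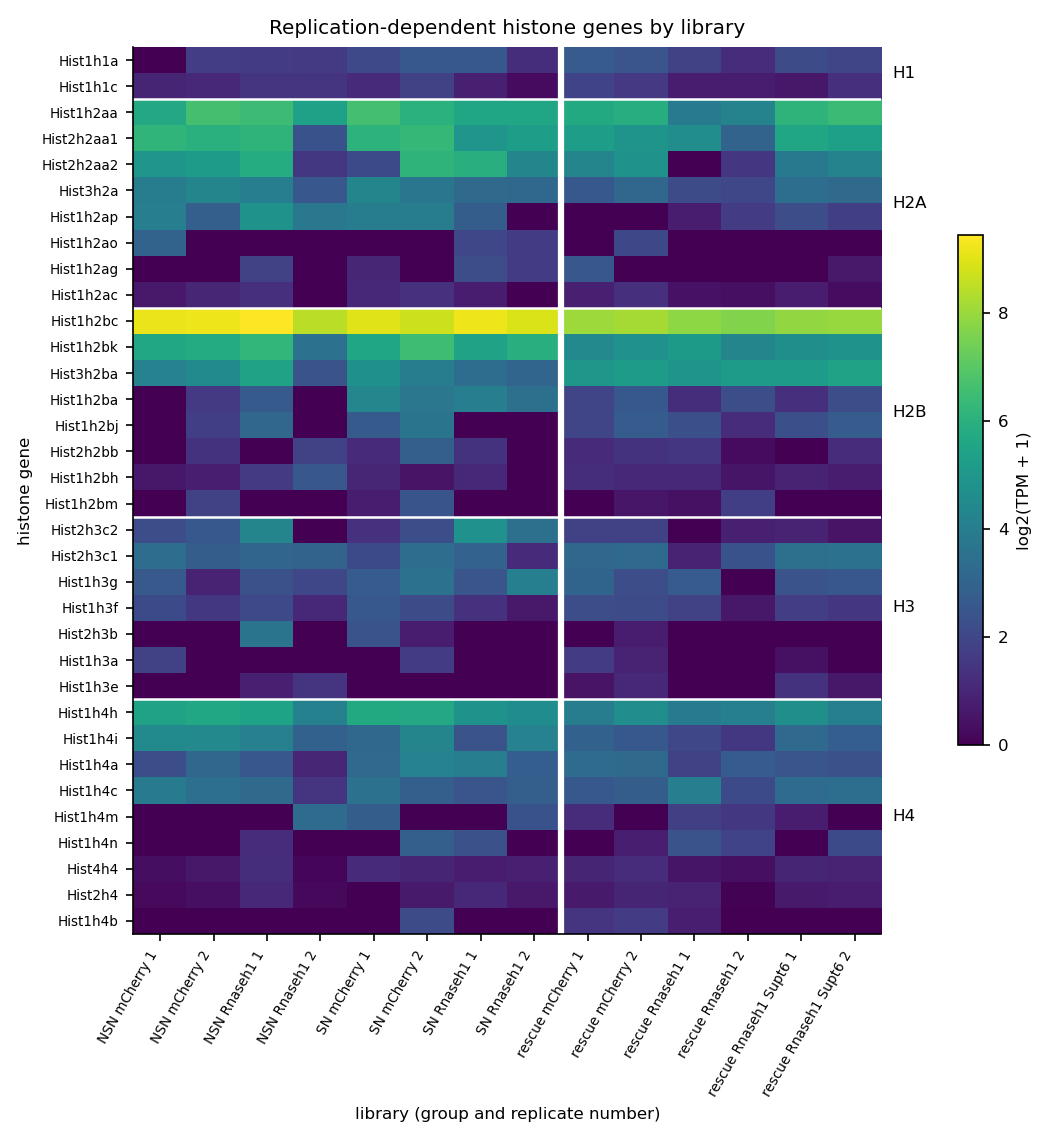
Level of the 34 replication-dependent histone genes tested in at least 1 table, as log2(TPM + 1), with a row per gene grouped by family and a column per library; the white vertical line separates the NSN and SN table from the rescue table. Hist1h2bc is the brightest row in every library, and many H3 and H4 rows are dark.

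A single H2B gene dominated. Hist1h2bc (ENSMUSG00000018102.5, chromosome 13, 23684199 to 23692908, plus strand, GRCm38) averaged 526.4 TPM in the NSN and SN table, 58.4% of the TPM of all 67 genes, and made up 44.76% to 71.4% over the 8 libraries. In the rescue table it averaged 245 TPM, or 50.69%, with a range of 45.87% to 59.24%. Its annotated transcript of 1156 bases spans more than 1 exon and holds no stem-loop of the searched forms. It was the only tested member with more than 1 exon, among 5 such genes in the set.

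The next genes by mean level in the NSN and SN table were Hist1h2aa (TH2A) with 66.85 TPM, the H2B gene Hist1h2bk with 53.74 TPM, the H2A gene Hist2h2aa1 with 52.18 TPM and the H4 gene Hist1h4h with 37.96 TPM. In the rescue table they were Hist1h2aa with 49.48 TPM, Hist3h2ba (H2B) with 34.75 TPM, Hist2h2aa1 with 30.57 TPM and Hist1h2bk with 25.34 TPM. H2B genes together held 68.12% of histone TPM in the first table and 65.38% in the second. H2A held 20.23% and 21.43%, H4 8.215% and 8.776%, H3 2.975% and 3.379%, and H1 0.4633% and 1.044%. Core histones are used in equal numbers in a nucleosome, and these polyadenylated mRNA levels were far from equal. The tables were normalized separately, so levels are compared within each.

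Rnaseh1 against mCherry in the rescue libraries asks how Rnaseh1 overexpression bears on these mRNAs. The levels of H2A and H3 mRNA were lower with Rnaseh1, those of H2B lay slightly below the control, and those of H4 overlapped. Summed over all H2A genes, the 2 Rnaseh1 libraries had 41.94 and 32.23 TPM and the mCherry libraries 120.36 and 129.07 TPM. For H3 the sums were 8.96 and 6.37 TPM against 23.83 and 21.02 TPM, and for H1 3.17 and 2.22 TPM against 9.03 and 6.8 TPM. For H2B they were 298.2 and 262.3 TPM against 329.62 and 359.67 TPM, and without Hist1h2bc 71.84 and 63.92 TPM against 64.62 and 75.92 TPM. For H4 they were 44.44 and 31.77 TPM against 40.02 and 48.7 TPM. The difference of the mean log2(sum + 1) was -1.73 for H2A, -1.45 for H3, -1.27 for H1, -0.30 for H2B and -0.23 for H4. The sums depend less than single genes on how reads were divided among copies. They still change with reads divided among copies of unequal length, since TPM is per length. Reads shared between families or with genes outside the set change them too. The differences between families were not tested. In bulk libraries, fewer transcripts per oocyte and a change in all other transcripts of the TPM total cannot be told apart.

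**Figure D2:**
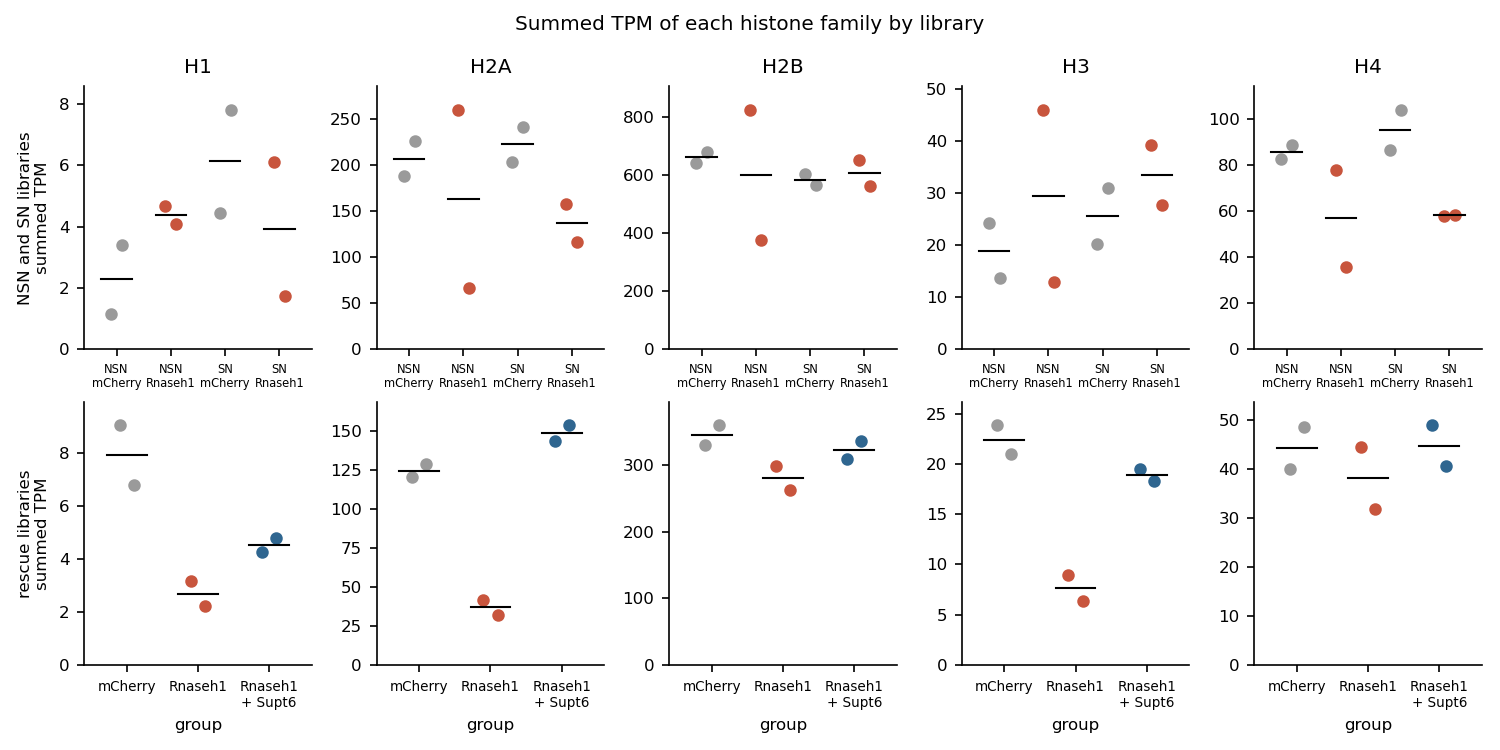
Summed TPM of each histone family in the NSN and SN libraries (upper row) and the rescue libraries (lower row), with a point per library and a line at the mean of the 2; the vertical axes start at 0 and differ between panels. In the rescue libraries the H2A sums with Rnaseh1 are 41.94 and 32.23 TPM, below all 4 other libraries, while the H4 sums overlap between groups.

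Of the 26 tested genes, 12 fell and 2 rose with Rnaseh1 (limma, Benjamini-Hochberg adjusted p under 0.05 over all genes). Over all 12859 genes tested, 66.5% were called, 46.2% fell and 20.3% rose, so the members' 46.15% that fell were at the background. Both Rnaseh1 libraries were below both mCherry libraries for 14 of the 26 members (54.8% of all genes) and above for 3 (26.4%). The median log2 fold change was -0.78 over the members and -0.52 over all genes. By family, 4 of 5 H2A genes fell and 1 rose, 2 of 2 H1 genes, 2 of 5 H3 genes and 1 of 7 H2B genes fell, and 3 of 7 H4 genes fell and 1 rose. The split depends on the scaling: with each library centred on its median gene 2 members fell and 4 rose (30.3% and 33.4% of all genes). With quantile normalization 3 fell and 5 rose (30.8% and 32.8% of all genes), and with the trend on transcript GC content removed 7 fell and 6 rose (48.2% and 15% of all genes). Median centring moved the median of all genes from -0.52 to 0.06. Within these 3 alternatives the H2A median stayed below 0, at -0.67, -0.57 and -0.66, with 2, 2 and 3 genes that fell and 1 that rose in each, as did the H3 median, at -0.70, -0.71 and -0.29. The H1 median stayed below 0 as well, at -0.47, -0.41 and -0.23, but neither H1 gene was called in any of them. The H2B and H4 medians turned above 0, to 0.22, 0.28 and 0.53 for H2B and to 0.28, 0.41 and 0.17 for H4. The count of 14 called members was 9 without the second Rnaseh1 library, 7 without the first mCherry library and 6 without the second. Of all genes, 65.1%, 58.2% and 55.9% were called in the same fits.

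Hist1h2aa (ENSMUSG00000060081.1, chromosome 13, 23934462 to 23934851, plus strand) was measured at 13.36 and 17.82 TPM in the Rnaseh1 libraries, 52.85 and 57.69 TPM in the mCherry libraries and 70.18 and 84.95 TPM with Rnaseh1 plus Supt6. The 3 groups did not overlap, with Rnaseh1 lowest. The gene fell by 1.77 on the log2 scale with Rnaseh1 (SE 0.17, limma adjusted p = 8.8e-05). It stayed past the threshold in all 16 alternative settings, which included leaving out each rescue library, with values from -1.97 to -0.66.

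Hist2h2aa1 (ENSMUSG00000064220.6, chromosome 3, 96245497 to 96246082, plus strand) and Hist2h2aa2 (ENSMUSG00000063954.7, chromosome 3, 96239749 to 96240276, minus strand) are neighbouring copies of H2A. Hist2h2aa2 was at 0 and 1.81 TPM with Rnaseh1 and at 18.59 and 27 TPM with mCherry, and it fell by 3.80 (SE 0.47, adjusted p = 0.00033). Hist2h2aa1 was at 24.01 and 7.11 TPM against 38.23 and 28.28 TPM, and fell by 1.25 (SE 0.47, adjusted p = 0.049), a call that 5 of 16 alternative settings kept. Since their reads are hardly separable, the sum is given as well: 24.01 and 8.92 TPM with Rnaseh1 against 56.82 and 55.28 TPM with mCherry, a difference in mean log2(sum + 1) of -1.86. Every mCherry sum was above both Rnaseh1 sums.

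Hist3h2a (ENSMUSG00000078851.4, chromosome 11, 58954685 to 58956830, plus strand), a replication-dependent H2A gene outside the large clusters, was at 3.51 and 3.07 TPM with Rnaseh1 and at 5.01 and 7.64 TPM with mCherry. It fell by 0.75 (SE 0.25, adjusted p = 0.032), and 8 of 16 alternative settings lost the call. The fifth tested H2A gene, Hist1h2ap, was at 0.7 and 2.12 TPM against 0 in both mCherry libraries and was called as risen by 1.2 (SE 0.35, adjusted p = 0.020). It shares 93.1% of its pieces with Hist1h2ao, and the sum of the pair overlapped between the groups, at 0.7 and 2.12 TPM against 0 and 3.15 TPM. The call was therefore not seen in the level of the pair.

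The promoters of the members that fell with Rnaseh1 and rose when Supt6 was added are shown for the resolved genes and for Hist2h2aa1, from RefSeq on GRCm38.p6, ending at the base before the start site. Capitals mark matches on either strand to the octamer ATTTGCAT, the TATA box TATAAA, the CCAAT box CCAAT and the H1 box AAACACA.
Hist1h2aa, chr13:23934187-23934436, plus strand: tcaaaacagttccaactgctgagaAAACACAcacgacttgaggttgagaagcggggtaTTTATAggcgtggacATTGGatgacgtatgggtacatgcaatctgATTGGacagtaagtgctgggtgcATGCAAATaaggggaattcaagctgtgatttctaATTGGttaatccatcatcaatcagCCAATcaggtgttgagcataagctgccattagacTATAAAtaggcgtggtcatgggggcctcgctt
Hist2h2aa1, chr3:96245297-96245496, plus strand: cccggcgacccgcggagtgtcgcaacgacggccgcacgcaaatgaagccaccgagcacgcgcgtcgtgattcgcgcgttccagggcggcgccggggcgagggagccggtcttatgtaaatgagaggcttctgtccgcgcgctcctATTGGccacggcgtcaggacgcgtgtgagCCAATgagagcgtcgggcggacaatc
Hist3h2a, chr11:58954485-58954684, plus strand: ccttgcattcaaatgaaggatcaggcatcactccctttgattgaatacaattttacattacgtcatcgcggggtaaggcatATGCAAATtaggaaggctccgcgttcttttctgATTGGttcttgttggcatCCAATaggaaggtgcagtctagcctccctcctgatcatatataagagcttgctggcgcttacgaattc
Hist1h4i, chr13:22041363-22041562, minus strand: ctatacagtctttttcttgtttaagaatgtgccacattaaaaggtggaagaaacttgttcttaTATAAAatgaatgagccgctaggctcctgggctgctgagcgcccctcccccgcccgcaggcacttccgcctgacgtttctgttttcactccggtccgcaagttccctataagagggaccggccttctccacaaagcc
The Hist1h2aa sequence covers 250 of the 280 bases between its start site and that of Hist1h2ba on the other strand, and holds 1 octamer, 2 TATA, 4 CCAAT and 1 H1 box match. The other 3 share no single motif: Hist2h2aa1 has 2 CCAAT matches, Hist3h2a 1 octamer and 2 CCAAT matches, and Hist1h4i 1 TATA match. The 300-base windows of Hist2h2aa1 and Hist2h2aa2 contain an identical run of 219 bases.

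RefSeq promoter windows, from 250 bases before to 50 after the start site, were present for 62 of the 67 genes. The octamer occurred in 22.6% of them and in 1.97% of all 27025 windows, and only in H2A (38.9%) and H2B (43.8%) genes. The CCAAT box occurred in 100% of the windows of H1, H2A, H2B and H3 genes, in 25% of H4 windows and in 41.1% of all windows. The TATA box occurred in 56.5% of member windows against 15.7% of all, with 36.7% in the 30 tested members and 75% in the 32 others. The H1 box was found in 83.3% of H1 windows and 8.22% of all windows. The letters GGTCC, part of the H4 site, were found in 91.7% of H4 windows and 48.7% of all. The E2F letters TTTGGCGC were in no member window and in 0.585% of all. These are matches of letters on both strands, none of the motifs contains another, and no match was tied to binding.

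H2B gave the counterpart. Hist1h2bc was at 226.36 and 198.38 TPM with Rnaseh1 and at 265 and 283.75 TPM with mCherry. The groups did not overlap and the gene fell by 0.37 (SE 0.09, adjusted p = 0.011), less than the median of all genes. Over 16 alternative settings its values ran from -0.94 to 0.22, and 14 kept the call. The value of 0.22, with the sign turned, came with median centring. Hist1h2bk was at 34.18 and 18.73 TPM against 20.95 and 26.08 TPM, and Hist3h2ba at 28.23 and 35.98 TPM against 31.22 and 35.31 TPM, so both overlapped. Hist1h2ba (TH2B), which shares the divergent promoter with Hist1h2aa, was at 1.35 and 3.79 TPM with Rnaseh1 and 2.96 and 5.04 TPM with mCherry and was not called. The difference between the changes of these 2 divergent genes was not tested.

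Among H3 genes, which encode the canonical S-phase H3, the Hist2 copies were called. Hist2h3c1 was at 0.85 and 4.22 TPM with Rnaseh1 and 7.61 and 8.28 TPM with mCherry, and fell by 1.52 (SE 0.45, adjusted p = 0.020). Hist2h3c2 was at 0 and 0.79 TPM against 2.61 and 2.54 TPM and fell by 1.42 (SE 0.34, adjusted p = 0.0085). These genes and Hist2h3b share sequence, and their sum was 0.85 and 5.01 TPM with Rnaseh1 against 10.22 and 11.45 TPM with mCherry. Hist2h3c1 had 0% unique pieces, and its largest overlap with a member, Hist2h3c2, held 34.7% of them. Its overlaps with members do not cover all its pieces. Reads may therefore also be shared with genes outside the set, which the sum does not resolve. Both calls were lost with median centring and with quantile normalization.

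The H4 genes did not move as a group. Hist1h4i (ENSMUSG00000060639.5, chromosome 13, 22040636 to 22041362, minus strand) was at 3.06 and 1.9 TPM with Rnaseh1 and 6.55 and 5.07 TPM with mCherry, and fell by 0.98 (SE 0.28, adjusted p = 0.017). Hist1h4a, at 2.52 and 5.77 TPM against 8.84 and 8.66 TPM, and Hist1h4b, at 0.73 and 0 TPM against 1.65 and 2.23 TPM, also fell. Alternative settings kept these calls in 11 of 16 for Hist1h4i, 6 of 16 for Hist1h4a and 9 of 15 for Hist1h4b. With median centring, quantile normalization and the GC trend removed, 0 of 7 H4 genes fell and 2, 2 and 3 rose. Hist1h4h, the most abundant H4 gene, was at 14.4 and 15.76 TPM against 14.98 and 23.6 TPM, and Hist1h4c at 15.33 and 3.4 TPM against 5.13 and 5.86 TPM. Neither was called, and the groups overlapped in both. Hist1h4n was at 4.3 and 2.69 TPM against 0 and 0.73 TPM and rose by 1.75 (SE 0.66, adjusted p = 0.0496), a call that 8 of 15 alternative settings kept. Its sum with the near copy Hist1h4m was 6.73 and 4.57 TPM against 1.29 and 0.73 TPM, and did not overlap.

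Of the 6 linker histone H1 genes, only Hist1h1a and Hist1h1c were tested. Hist1h1a was at 2.51 and 1.31 TPM with Rnaseh1 and 5.52 and 4.63 TPM with mCherry, and fell by 1.09 (SE 0.29, adjusted p = 0.012). Hist1h1c was at 0.66 and 0.64 TPM against 2.74 and 2 TPM, and fell by 1.02 (SE 0.31, adjusted p = 0.022). The groups did not overlap for either gene. Both stood at a few TPM or less, while H1foo, the replication-independent linker histone of oocytes, averaged 2065 TPM with Rnaseh1 and 6595 TPM with mCherry (SD 10.71 and 217.7, n = 2).

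**Figure D3:**
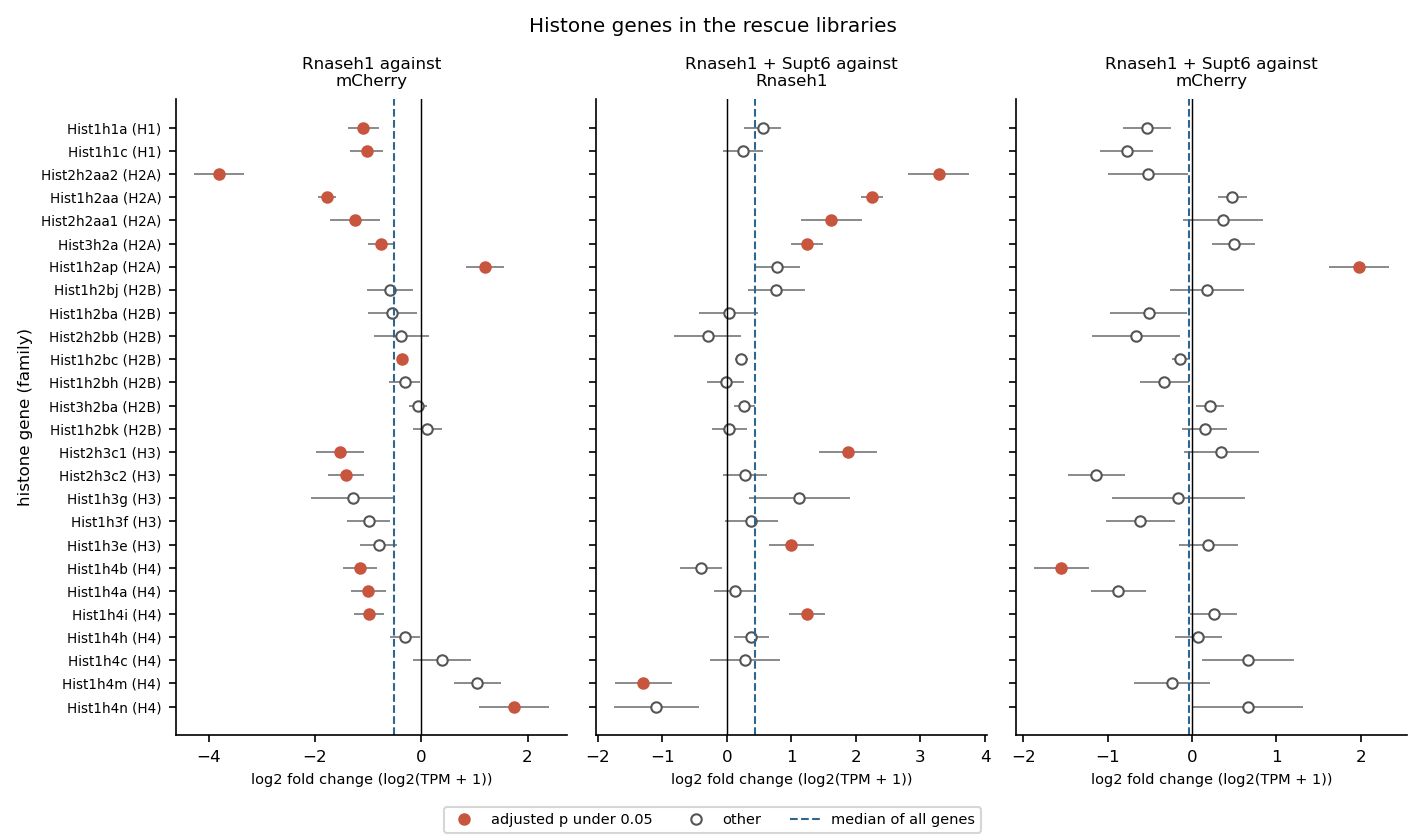
Log2 fold change of the 26 histone genes tested in the rescue libraries in 3 comparisons, on the log2(TPM + 1) scale, with bars of 1 standard error, filled points for limma adjusted p under 0.05 and a dashed line at the median of all genes. The H2A genes Hist2h2aa2, Hist1h2aa, Hist2h2aa1 and Hist3h2a lie below 0 in the left panel and above 0 in the middle one, which share the Rnaseh1 libraries. Hist1h2bc lies below 0 in the left panel, at -0.37. Its value with median centring, 0.22, is not drawn.

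Adding Supt6 to Rnaseh1 asks whether these mRNAs differ from Rnaseh1 alone. With Supt6, H2A sums were 143.98 and 153.71 TPM, above the 41.94 and 32.23 TPM of Rnaseh1 alone, and H3 sums were 19.52 and 18.28 TPM against 8.96 and 6.37 TPM. H2B sums were 309.47 and 336.44 TPM against 298.2 and 262.3 TPM, and H4 sums 48.93 and 40.61 TPM against 44.44 and 31.77 TPM, with overlap for H4. This comparison shares the Rnaseh1 libraries with the one before, so opposite signs in both are partly built in. Of 26 members, 7 rose and 1 fell. Over all genes 58.9% were called, 41.6% rose and 17.4% fell, so the 26.92% of members that rose lay below the background. Both libraries with Supt6 were above both Rnaseh1 libraries for 11 members (54.5% of all genes) and below for 1 (25.5%). The members' median was 0.33 against 0.44 for all genes. The share of members that rose also depended on the scaling: with median centring 4 rose and 3 fell (26.2% and 30% of all genes). With quantile normalization 2 rose and 1 fell (27% and 29.1% of all genes), and with the GC trend removed 6 rose and 5 fell (42.2% and 13% of all genes). Without the first Rnaseh1 plus Supt6 library 3 members were called, against 8 with it, where 45.1% of all genes were called. Without the first Rnaseh1 library 12 were called and all rose, where 58.4% of all genes were called.

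By family, 4 of 5 H2A genes rose, as did 2 of 5 H3 genes, 1 of 7 H4 genes, 0 of 7 H2B genes and 0 of 2 H1 genes. Hist1h2aa rose by 2.25 (SE 0.17, adjusted p = 3.8e-05) and Hist2h2aa2, at 13.1 and 17.82 TPM, rose by 3.28 (SE 0.47, adjusted p = 0.00089). Both stayed past the threshold in all 16 alternative settings. Hist3h2a was at 9.69 and 8.61 TPM and rose by 1.24 (SE 0.25, adjusted p = 0.0045), a call that only quantile normalization lost. Hist2h2aa1, at 46.64 and 39.17 TPM, rose by 1.62 (SE 0.47, adjusted p = 0.021), a call that 10 of 16 alternative settings kept. The summed Hist2h2aa1 and Hist2h2aa2 level was 59.74 and 56.99 TPM, above both Rnaseh1 libraries.

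Hist2h3c1, at 10.1 and 10.68 TPM with Supt6, rose by 1.87 (SE 0.45, adjusted p = 0.0096), and Hist1h4i, at 8.24 and 6.08 TPM, rose by 1.24 (SE 0.28, adjusted p = 0.0074). Hist1h3e was at 1.62 and 0.52 TPM with Supt6, was listed at 0 in both Rnaseh1 libraries and rose by 0.997 (adjusted p = 0.043). Hist1h4m was at 0.65 and 0 TPM against 2.43 and 1.88 TPM and fell by 1.29 (adjusted p = 0.040). Of 15 alternative settings, 6 kept the Hist1h3e call and 9 the Hist1h4m call. Hist1h2bc stood at 241.33 and 254.96 TPM, above both Rnaseh1 libraries, and was not called (adjusted p = 0.077). Hist1h1a, at 3.49 and 2.9 TPM, and Hist1h1c, at 0.54 and 1.49 TPM, were not called either.

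Rnaseh1 plus Supt6 set against mCherry left few differences. Only 1 member rose and 1 fell of 26, where 13.3% of all genes were called, 5.71% up and 7.6% down. The median was -0.03 over members and -0.04 over all genes, and the groups did not overlap for 7 members above (26.8% of all genes) and 9 below (34.5%). The called genes were Hist1h2ap, at 3.67 and 2.34 TPM against 0 in both mCherry libraries (1.98, SE 0.35, adjusted p = 0.016), and Hist1h4b, at 0 in both against 1.65 and 2.23 TPM (-1.55, SE 0.32, adjusted p = 0.026). Both are low and have close copies. Neither was called when either mCherry library or either Rnaseh1 plus Supt6 library was left out. H2A sums were 143.98 and 153.71 TPM, above the 120.36 and 129.07 TPM of mCherry, and H3 sums were 19.52 and 18.28 TPM, below 23.83 and 21.02 TPM. The H1 sums, 4.27 and 4.78 TPM, also lay below the 9.03 and 6.8 TPM of mCherry.

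**Figure D4:**
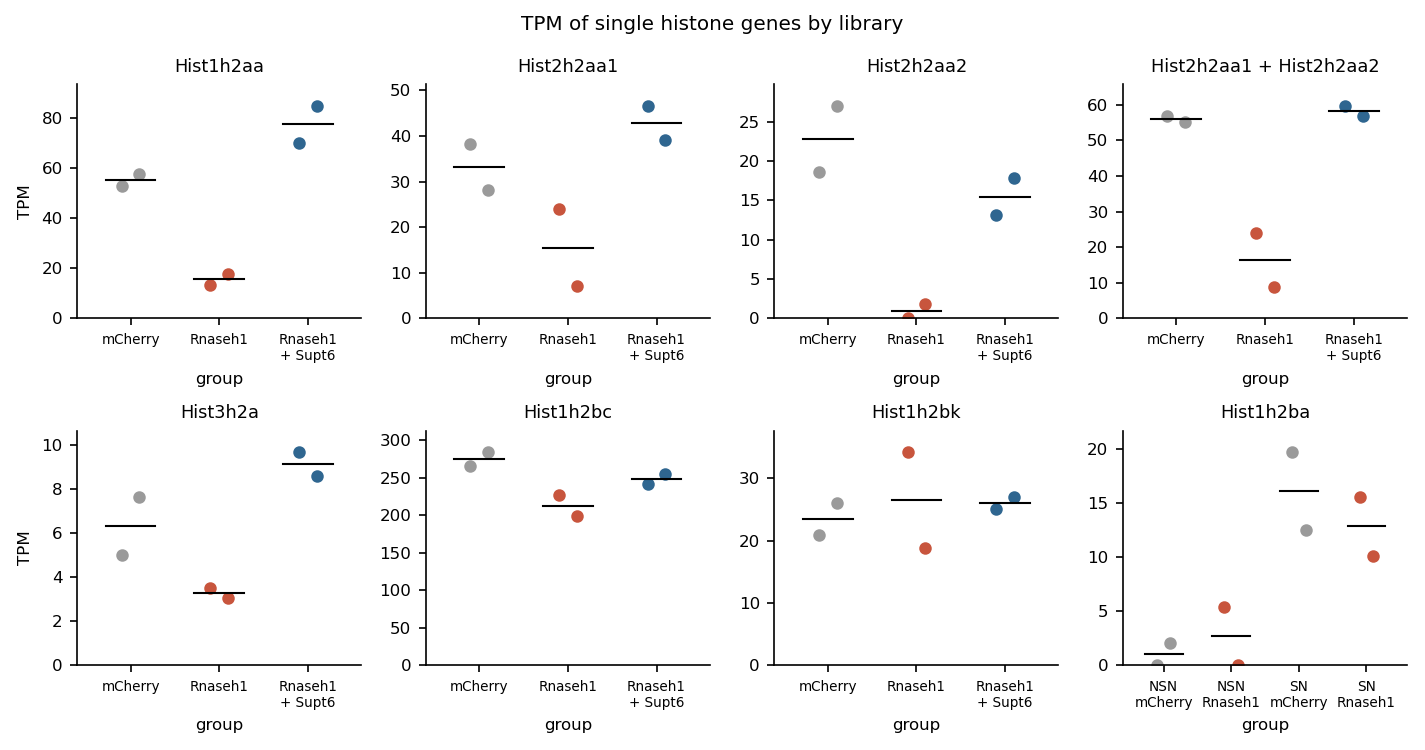
TPM of single histone genes, with a point per library, a line at the mean of the 2 and vertical axes from 0: 6 genes and the Hist2h2aa1 plus Hist2h2aa2 sum in the rescue libraries, and Hist1h2ba in the NSN and SN libraries. Hist1h2aa is at 13.36 and 17.82 TPM with Rnaseh1 and above 50 TPM in the other 4 rescue libraries, while the Hist1h2bk groups overlap.

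Other measures moved with these differences. Over all genes, the fold change of Rnaseh1 against mCherry had a rank correlation of -0.525 with transcript GC content, and that of Rnaseh1 plus Supt6 against Rnaseh1 one of 0.479. The members' median GC content was 57.5% against 49.4% for all genes. Across the 26 members themselves the rank correlations were -0.156 and 0.15. With the GC trend removed, Hist1h2aa still fell by 0.66 (adjusted p = 0.012) and Hist2h2aa2 by 2.81 (adjusted p = 0.0016), whereas Hist1h1a was at -0.30 (adjusted p = 0.37). Oocyte markers summed to 7635 to 7935 TPM with Rnaseh1, against 24870 to 26560 TPM with mCherry and 27380 to 29130 TPM with Rnaseh1 plus Supt6, and 10 of the 12 fell with Rnaseh1. Granulosa marker sums, 45.28 to 54.14 TPM with Rnaseh1 and 51.93 to 54.66 TPM with mCherry, overlapped. Their part in the histone values was not tested.

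In the NSN and SN libraries the same treatment gave no called member. In SN oocytes 0 of 32 members passed with Rnaseh1 against mCherry, where 0.0% of all genes were called by limma. At an unadjusted p under 0.05 there were 3 members (9.375%) and 6.74% of all genes. The median was -0.48 over members and -0.22 over all genes, and 25 of 32 members lay below 0. The share of all genes below 0 is not given. Both Rnaseh1 libraries were below both mCherry libraries for 14 members (31.7% of all genes) and above for 3 (18.9% of all genes). On simulated data with a small part of all genes changed by 1 or 2 on the log2 scale, 0% were recovered in this comparison. Of those changed by 3, 47% were recovered, so in that setting only very large changes could pass.

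The H2A sums in SN oocytes were 157.66 and 116.38 TPM with Rnaseh1 against 203.67 and 240.84 TPM with mCherry, and the H4 sums 58.16 and 58.27 TPM against 86.6 and 104 TPM. Both families were lower without overlap. In this comparison, too, other measures moved: the fold change over all genes had a rank correlation of -0.466 with transcript GC content, and oocyte markers summed to 8990 to 9011 TPM with Rnaseh1 against 9997 to 30240 TPM with mCherry. Granulosa or cumulus markers summed to 38.31 to 39.12 TPM against 47.14 to 53.53 TPM. Their part in the family sums was not tested. The H2B sums, 653.59 and 561.77 TPM against 604.2 and 565.89 TPM, and the H3 sums, 39.11 and 27.73 TPM against 20.13 and 30.86 TPM, overlapped. The members with an unadjusted p under 0.05 were Hist1h2bj, at 0 in both Rnaseh1 libraries against 5.33 and 11.31 TPM, Hist1h2ap, at 5.84 and 0 TPM against 14.87 and 15.14 TPM, and Hist1h3f, at 1.57 and 0.55 TPM against 5.13 and 3.57 TPM (limma adjusted p = 0.61 for each). Hist1h2aa was at 45.97 and 47.29 TPM against 96.65 and 64.26 TPM, below both control libraries and not called. The Hist2h2aa1 and Hist2h2aa2 sum, 88.32 and 56.99 TPM against 70.84 and 145.55 TPM, overlapped.

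In NSN oocytes 0 of 32 members passed (0.0% of all genes), and 1 member had an unadjusted p under 0.05 (2.77% of all genes). Both Rnaseh1 libraries were above both mCherry libraries for 2 members (10.3% of all genes) and below for 2 (22.6%). The member with the smallest p was Hist1h2bh, at 2.03 and 4.87 TPM with Rnaseh1 against 0.54 and 0.72 TPM with mCherry (limma adjusted p = 0.76). As in SN oocytes, the H4 sums were lower without overlap, at 78.06 and 35.72 TPM with Rnaseh1 against 82.71 and 88.85 TPM with mCherry. The H1 sums were higher without overlap, at 4.66 and 4.08 TPM against 1.15 and 3.41 TPM. H2A, H2B and H3 sums overlapped. The 2 Rnaseh1 libraries differed widely. Hist2h2aa1 was at 68.73 and 4.14 TPM, Hist1h2bk at 74.16 and 10.68 TPM, and Hist1h2bc at 692.99 and 355.64 TPM, while the mCherry libraries had 70.8 and 62.89 TPM, 48.08 and 55.54 TPM, and 576.86 and 593.93 TPM. The median absolute difference between these 2 Rnaseh1 libraries was 1.23 on the log2 scale over members and 0.896 over all genes, against 0.371 and 0.29 between the NSN mCherry libraries. Without the first NSN Rnaseh1 library, which left the second alone in its group and assumed to vary like the others, 3 members (9.375%) fell, where 8.66% of all genes were called.

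The test of whether the Rnaseh1 difference itself differed between SN and NSN oocytes called 0 of 32 members and 0.0% of all genes by limma, with 3 members and 2.26% of all genes at an unadjusted p under 0.05. Those 3 were Hist1h2ao, Hist1h2ap and Hist1h2bj (adjusted p = 1 for each), of which the first 2 are near copies of each other. Over the 24 members tested in both tables, which share no library, 15 were below 0 both in the SN and in the rescue comparison of Rnaseh1 with mCherry, 0 were above 0 in both and 9 had opposite signs. For NSN and rescue the numbers were 12, 3 and 9. The shares of all genes with such signs are not given. Medians over all genes were also below 0, at -0.22 in SN, -0.29 in NSN and -0.52 in the rescue comparison. Across the 24 members the SN and rescue log2 fold changes had Pearson's r = -0.349 and Spearman's rho = -0.155. The NSN and rescue values had r = 0.436 and rho = 0.278. These correlations are given as a description because the members share libraries and some share reads.

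SN against NSN compares a later, largely silent state with an earlier, transcribing one. With mCherry, 0 of 32 members and 0.0% of all genes passed. The members' median was 0.36 against -0.03 for all genes, and 11 members lay higher in both SN libraries than in both NSN libraries (8.43% of all genes) and 2 lower (19.0%). The SN mCherry libraries are also the control for Rnaseh1 in SN oocytes, so opposite signs in these 2 comparisons are partly built in. The median absolute difference between the SN mCherry libraries was 0.752 on the log2 scale over members and 0.652 over all genes. Between the NSN mCherry libraries it was 0.371 and 0.29. With Rnaseh1, 0 of 32 members and 0.0% of all genes passed, the median was 0 against 0.02, and 4 members lay higher (14.1%) and 4 lower (12.5%). At an unadjusted p under 0.05 there were 1 and 3 members, against 2.58% and 4.59% of all genes.

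Hist1h2ba (ENSMUSG00000050799.3, chromosome 13, 23933773 to 23934156, minus strand), the TH2B gene, had the smallest p of the members between stages with mCherry. It was at 19.74 and 12.49 TPM in SN and 0 and 2.07 TPM in NSN oocytes with mCherry, and at 15.61 and 10.14 TPM in SN and 5.38 and 0 TPM in NSN oocytes with Rnaseh1. All 4 SN libraries were above all 4 NSN libraries, which was so for 1 of 32 members and 0.707% of all genes, and no member was lower in all SN libraries (2.54% of all genes). The log2 fold change was 3.25 with mCherry (SE 0.92, limma adjusted p = 1) and 2.43 with Rnaseh1 (SE 0.92, adjusted p = 1), so it did not pass over all genes. Averaged over both treatments, a contrast added after its values were seen, the log2 fold change was 2.84 (SE 0.65, adjusted p = 0.56), with 0 of 32 members called against 0.00785% of all genes, and 2 members at an unadjusted p under 0.05 against 4.62%. Its divergent partner Hist1h2aa had 96.65, 64.26, 45.97 and 47.29 TPM in SN libraries and 50.89, 99.76, 88.23 and 41.76 TPM in NSN libraries, which overlapped.

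The genes that act on histone mRNA were described from lists of known factors. In the rescue comparison of Rnaseh1 with mCherry, 7 of 11 tested genes for histone gene transcription fell and 2 rose, with a median of -1.77 against -0.52 for all genes. Those with the smallest p were the cyclin gene Ccna2, at 78.48 TPM with Rnaseh1 and 158.7 TPM with mCherry, E2f4, at 12.68 and 46.06 TPM, and E2f1, at 3.895 and 29.73 TPM, which fell, and Ccne2, at 92.89 and 38.52 TPM, which rose. Hinfp, the activator of H4 genes, averaged 2.46 TPM with Rnaseh1 and 21.48 TPM with mCherry (SD 0.04243 and 8.549), and Pou2f1, which binds the octamer, 9.485 and 35.8 TPM. Both fell. Npat, the coactivator at histone loci, was at 2.635 and 4.155 TPM and was not called (adjusted p = 0.092). Of all genes 46.2% fell and 20.3% rose. With Supt6 added, 7 of these 11 genes rose and 3 fell against Rnaseh1 alone (41.6% and 17.4% of all genes), with a median of 1.41 against 0.44 for all genes. Both comparisons use the same Rnaseh1 libraries.

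Of 17 genes for 3' end formation, 8 fell and 3 rose with Rnaseh1 (46.2% and 20.3% of all genes), with a median of -0.27 against -0.52 for all genes. Slbp was abundant, at 1550 TPM with Rnaseh1 and 1745 TPM with mCherry (SD 6.053 and 78.52, n = 2), and was not called (adjusted p = 0.074). Fip1l1 and Cpsf3, of the cleavage and polyadenylation machinery, fell, at 87.38 against 282.9 TPM and 33.51 against 76.72 TPM, while Wdr33 of the same machinery rose, at 236.6 against 98.92 TPM. The U7 subunit Lsm10 rose, at 996.8 against 531.7 TPM, and its partner Lsm11 fell, at 1.33 against 4.56 TPM. Of 8 tested genes for histone mRNA decay, 2 fell and 1 rose, with a median of -0.39, among them Upf1, which fell from 12.08 to 0.955 TPM.

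Of 11 tested replication-independent histones, 6 fell and 3 rose with Rnaseh1 (46.2% and 20.3% of all genes), with a median of -0.61 against -0.52 for all genes. H2afx, whose mRNA can end in a stem-loop or a tail, averaged 5.72 TPM with Rnaseh1 and 121.9 TPM with mCherry, and fell by 4.19 (SE 0.12, adjusted p = 7.1e-07). H3f3b, which encodes the replacement histone H3.3, was at 4311 against 1197 TPM and rose, whereas H3f3a, which encodes the same protein, was at 508.6 against 778 TPM and fell. In the NSN and SN comparisons 0 genes of these 4 lists were called by limma, with 0 to 2 per list at an unadjusted p under 0.05.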

How the data were processed

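The authors deposited TPM per gene and library in 2 tables, one with Ensembl identifiers and one with symbols. The tools listed, with no role given, are RSEM 1.3.3, STAR 2.7.0d, DESeq2 and Trim Galore 0.6.7, with the build mm10, per the submitters' processing notes; reads shared by near-identical copies may be divided between them by estimation, and the use of strand is not given in the sources used here. Identifiers were paired with symbols through GENCODE M21 (GRCm38) and RefSeq tables. Each table was fitted alone with limma 3.58.1 (lmFit, contrasts.fit, eBayes with a trend; R 4.3.3) on log2(TPM + 1), for genes of at least 1 TPM in at least 2 libraries, with all groups sharing the spread and Benjamini-Hochberg adjustment over all tested genes at 0.05. The pseudocount makes changes of low genes look smaller. No depth is known, so no counting error is given. The fit was tested on simulated data in which only a small part of all genes was changed. In the rescue comparison of Rnaseh1 with mCherry it recovered 19%, 78.5% and 90.5% of genes changed by 1, 2 and 3 on the log2 scale (12859 genes). In the data 66.5% of all genes were called, which makes the adjusted threshold easier to pass. The recovery therefore does not give the share of changed genes found there. Sums over genes had no test.

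The members and lists were chosen with earlier results of these data known. Named were the tested H1 genes, the 5 members with the highest mean in each table, in each comparison up to 3 members per direction with the smallest p and a mean of at least 5 TPM in the higher group, and up to 4 genes per list. The other called members, those with an unadjusted p under 0.05 and their close copies were named after their values were seen, as were Hinfp, Pou2f1, Npat, Slbp and Lsm11. As alternatives, the pseudocount was set to 0.1 or 5 and the filter to 5 TPM or none; the rest were median centring (genes with a mean of at least 10 TPM), quantile normalization, robust eBayes, the groups of a comparison alone, a replicate block, removal of the GC trend, and leaving out each library.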

Additional observations from a re-analysis of the deposited data

How the results depend on the processing

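The range of called members when leaving out 1 library at a time was 6 to 13 for Rnaseh1 against mCherry in the rescue libraries (14 with all), 3 to 12 for Rnaseh1 plus Supt6 against Rnaseh1 (8 with all), and 0 to 5 for Rnaseh1 plus Supt6 against mCherry (2 with all). For Rnaseh1 against mCherry, 8 of the 14 members left were called with a filter of 5 TPM (76.7% of all genes), and of 26 members 6 with median centring (63.7%) and 8 with quantile normalization (63.6%). For Rnaseh1 plus Supt6 against Rnaseh1, 5 of 47 were called with no filter (33.8% of all genes) and 3 of 26 with quantile normalization (56.1%). For Rnaseh1 plus Supt6 against mCherry, 0 of 14 were called with a filter of 5 TPM (21.3%) and 0 of 47 with no filter (4.41%), 1 of 26 with a pseudocount of 0.1 (10.05%) and with quantile normalization (13.5%), and 5 with the 2 groups fitted alone (19.2%). The cause was not tested. In the NSN and SN table, leaving out a library gave 0 to 3 called members for Rnaseh1 against mCherry in NSN oocytes and 0 to 1 for SN against NSN with Rnaseh1, the higher value in both without the first NSN Rnaseh1 library; the other counts stayed at 0. With the replicate number as a replicate block, 15, 7 and 2 members were called in the 3 rescue comparisons and 0 in the NSN and SN comparisons. Deviations of same-numbered libraries from their group means had correlations from -0.514 to 0.169. The labels do not say whether the numbers pair libraries, and these correlations cannot decide it. Leaving out the second NSN Rnaseh1 and second SN mCherry libraries together, added after seeing the data, left 0 of 32 members called by limma in each NSN and SN comparison; of all genes, at most 0.00785% were called.

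The sign turned for Hist1h2bc with median centring (0.22) and for Hist1h4a with the GC trend removed (7.4e-05), both for Rnaseh1 against mCherry in the rescue libraries. Over single genes, 275 of 335 values under other settings and 209 of 261 with libraries left out kept their direction and side of the threshold, and 58 and 52 kept only the direction. These pooled values include NSN and SN results that were never called, whose side of the threshold could hardly change. They therefore do not measure how stable the calls were. For Rnaseh1 against mCherry in the rescue libraries, calls were kept in 5 of 16 settings for Hist2h2aa1. They were kept in 6 of 16 for Hist1h4a and in 16 of 16 for Hist1h2aa and for Hist2h2aa2. Family sums have no call to compare. An unknown depth and 2 libraries per group limit all of these values.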

Other observations

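The balance between families differed between libraries of the rescue table. H2A sums were 41.94 and 32.23 TPM beside H2B sums of 298.2 and 262.3 TPM with Rnaseh1, and 120.36 and 129.07 TPM beside 329.62 and 359.67 TPM with mCherry. In SN oocytes the H2A sums were 157.66 and 116.38 TPM with Rnaseh1 beside 203.67 and 240.84 TPM with mCherry, while the H2B sums overlapped. No test was made of the ratio.

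Hist1h3g, an H3 gene on chromosome 13, was at 15.87 and 4.57 TPM in SN Rnaseh1 libraries, 5.7 and 10.79 TPM in SN mCherry libraries, and 0.86 to 5.24 TPM in the 4 NSN libraries, so the stages overlapped. Hist2h3c2 was at 26.12 and 10.1 TPM with Rnaseh1 against 1.53 and 3.82 TPM with mCherry in SN oocytes, above both, and at 0 and 0.79 TPM against 2.61 and 2.54 TPM in the rescue libraries, below both; the difference between the tables was not tested. It shares 63.5% of its 50-base pieces with Hist2h3c1.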
